A study of Mus musculus with 35 samples.

Results

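The genes described here mark amacrine and horizontal cells, the interneurons of the retina. They are 10 of the 25655 genes in each of 8 tables in which the authors compared groups of mouse retinas: Gad1, Gad2, Slc32a1, Slc6a9, Th, Chat, Pax6, Calb1, Lhx1 and Onecut1. They were taken by their name in the tables, and all 10 had a deposited test in all 8. The study followed retina of diabetic mice whose microglia, the resident immune cells, were removed for a time and then allowed to return, and whole-retina messenger RNA was sequenced from 35 samples in 7 groups.

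The non-diabetic group (ND) had 6 samples and took no depletion. A non-diabetic repopulated group of 5 samples had 2 weeks of depletion and 2 weeks of recovery. Diabetic groups without depletion were sampled at 6 weeks (D6, 5 samples), 8 weeks (D8, 5 samples) and 10 weeks of diabetes (D10, 5 samples). The D8 depleted group (4 samples) had 8 weeks of diabetes with depletion over the last 2, and the D10 repopulated group (5 samples) had 10 weeks of diabetes with 2 weeks of depletion followed by 2 of recovery. All groups are labelled wild-type, while the series text names CX3CR1-WT mice. The series text names PLX-5622 as the depleting agent, whereas the sample labels read DTx. PBS appears in the labels of D8 and of D10 but in those of no other group, and the library numbers of D8 and D10 (2974 to 2983) are apart from those of the other groups (3006 to 3035). PBS and library numbers therefore cannot be told apart from depletion in the comparison of D8 depleted with D8. The same holds for repopulation in that of D10 repopulated with D10, and for the weeks of diabetes in those of D8 and D10 with ND. In D8 depleted against ND, diabetes cannot be told apart from depletion. In D10 repopulated against ND, it cannot be told apart from repopulation. Neither the age of the mice nor the way diabetes was induced is given in the sources used here. No label states that samples came from separate animals, so the p-values measure only the spread between these samples, which may be technical.

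Amacrine cells sit between bipolar and ganglion cells and shape the signal with inhibitory transmitters, mostly GABA or glycine. A few types add a second transmitter: starburst amacrine cells release acetylcholine and serve direction selectivity, and dopaminergic amacrine cells adjust the retina to light. Horizontal cells lie at the photoreceptor terminals and feed back onto rods and cones.

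In the authors' build, GRCm39, 4 of the 10 genes lie on chromosome 2: Gad2 at chr2:22512217-22583886, Gad1 at chr2:70383416-70432358, Pax6 at chr2:105499245-105527709 and Slc32a1 at chr2:158452687-158457668, all on the plus strand. Calb1 (chr4:15881264-15908064) and Slc6a9 (chr4:117691703-117732395) lie on the plus strand of chromosome 4. The others are Th (chr7:142446489-142484865, minus strand), Onecut1 (chr9:74769203-74799063, plus strand), Lhx1 (chr11:84409110-84416361, minus strand) and Chat (chr14:32130160-32187946, minus strand). These spans are whole genes, and values were deposited per gene. Slc6a9 overlaps Ccdc24 and B4galt2 on the other strand, and Chat holds Slc18a3 within its span on the same strand. Whether reads were counted by strand is not stated, so these neighbours may share reads with Slc6a9 and Chat.

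The 3 genes that were called lower after depletion against both ND and D8 are those of the GABA machinery, Gad1, Gad2 and Slc32a1, and the bases before their start sites are shown for that reason. RefSeq's table of promoters (GRCm38.p6) has entries for 9 of the 10 genes, and not for Calb1. The 250 bases before the start lie at chr2:70561879-70562128 for Gad1, chr2:22622077-22622326 for Gad2 and chr2:158610508-158610757 for Slc32a1 in that build, all on the plus strand, and capitals mark each CG.
Gad1: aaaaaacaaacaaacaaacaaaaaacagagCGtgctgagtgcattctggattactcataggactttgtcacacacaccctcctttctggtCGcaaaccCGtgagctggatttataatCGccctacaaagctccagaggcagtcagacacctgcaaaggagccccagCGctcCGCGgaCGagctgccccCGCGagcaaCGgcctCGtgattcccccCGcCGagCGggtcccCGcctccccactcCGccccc
Gad2: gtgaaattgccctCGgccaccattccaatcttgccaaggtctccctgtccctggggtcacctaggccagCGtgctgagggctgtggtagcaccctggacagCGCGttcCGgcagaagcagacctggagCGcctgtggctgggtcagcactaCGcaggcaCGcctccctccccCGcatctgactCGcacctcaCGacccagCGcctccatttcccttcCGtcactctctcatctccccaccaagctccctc
Slc32a1: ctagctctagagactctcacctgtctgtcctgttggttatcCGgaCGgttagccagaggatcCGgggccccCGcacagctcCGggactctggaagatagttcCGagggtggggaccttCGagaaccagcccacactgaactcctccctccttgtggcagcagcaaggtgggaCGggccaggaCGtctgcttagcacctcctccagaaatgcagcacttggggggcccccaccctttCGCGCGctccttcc
These windows hold CG 17 times in Gad1, 13 times in Gad2 and 12 times in Slc32a1, against a median of 6 over 32851 entries of the same length. Their GC content was 58.0%, 64.0% and 62.4%, against a median of 52.4%. GGGCGG, the GC box, was found on either strand in Gad1 and not in the other two, and 32.7% of all entries hold it. TATAAA was found in Gad1 alone of these 3, on the strand opposite to the one shown, and on either strand in 12.4% of all entries. TGACG, the core of a cAMP response element, was found in Gad2 alone of these 3, again on the opposite strand. On either strand, 17.8% of all entries hold it. Among the other members Onecut1 had the most CG (31, a count reached by 5.19% of entries), then Lhx1 (26, reached by 9.59%). Chat had 8, and 43.0% of entries had as many.

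Levels are given first as group means in the unit of the authors' deposited tables, which is not stated, so that they can be compared between groups for 1 gene and not between genes. Each table gives the larger of its pair of group means, and 42 of the 70 means of a gene in a group could be read from the tables: 21 recur in tables that share the group, 9 are the larger mean beside a known smaller one, and 12 were assigned by the sign of the change alone. The other 28, called implied, are the partner group's mean times the fold change, shifted by the median gap over genes between the ratio of read means and the fitted fold change. That shift ran from −0.048 on the log2 scale (D6 against ND) to 0.043 (D8 depleted against ND), so implied means that lie close together have no fixed order. Values per sample were not used here, so it cannot be said whether samples of different groups overlap. Fold changes are on a log2 scale, and each is followed by the standard error (SE) that its deposited p-value implies. A gene was called higher or lower where the authors' adjusted p was under 0.05.

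Gad1 and Gad2 encode the enzymes that make GABA from glutamate, and Slc32a1 encodes the transporter that loads GABA and glycine into synaptic vesicles. From the authors' deposited tables, the mean of Gad1 was 40.5 in ND, 40.9 in ND repopulated, 34.7 (implied) in D6, 39.6 in D8, 30.9 (implied) in D8 depleted, 38.3 (implied) in D10 and 41.2 in D10 repopulated. The mean of Gad2 was 4.75 in ND, 4.64 (implied) in ND repopulated, 3.91 (implied) in D6, 4.65 in D8, 3.31 (implied) in D8 depleted, 4.91 in D10 and 5.12 in D10 repopulated. For both genes D8 depleted was the lowest group and D6 the next lowest, and the highest mean was 1.33 times the lowest in Gad1 and 1.55 times in Gad2. The mean of Slc32a1 was 32.8 in ND, 32.0 (implied) in ND repopulated, 23.7 (implied) in D6, 30.9 in D8, 25.0 (implied) in D8 depleted, 30.0 (implied) in D10 and 32.6 in D10 repopulated. D6 and D8 depleted were the lowest groups for Slc32a1 too, but their order is not settled: by the deposited fold changes against ND, without the shift, D8 depleted (−0.43) was as low as D6 (−0.42). In all 3 genes the 5 groups other than D6 and D8 depleted lay close together: none of the comparisons among them that were deposited called any of the 3.

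**Figure D1:**
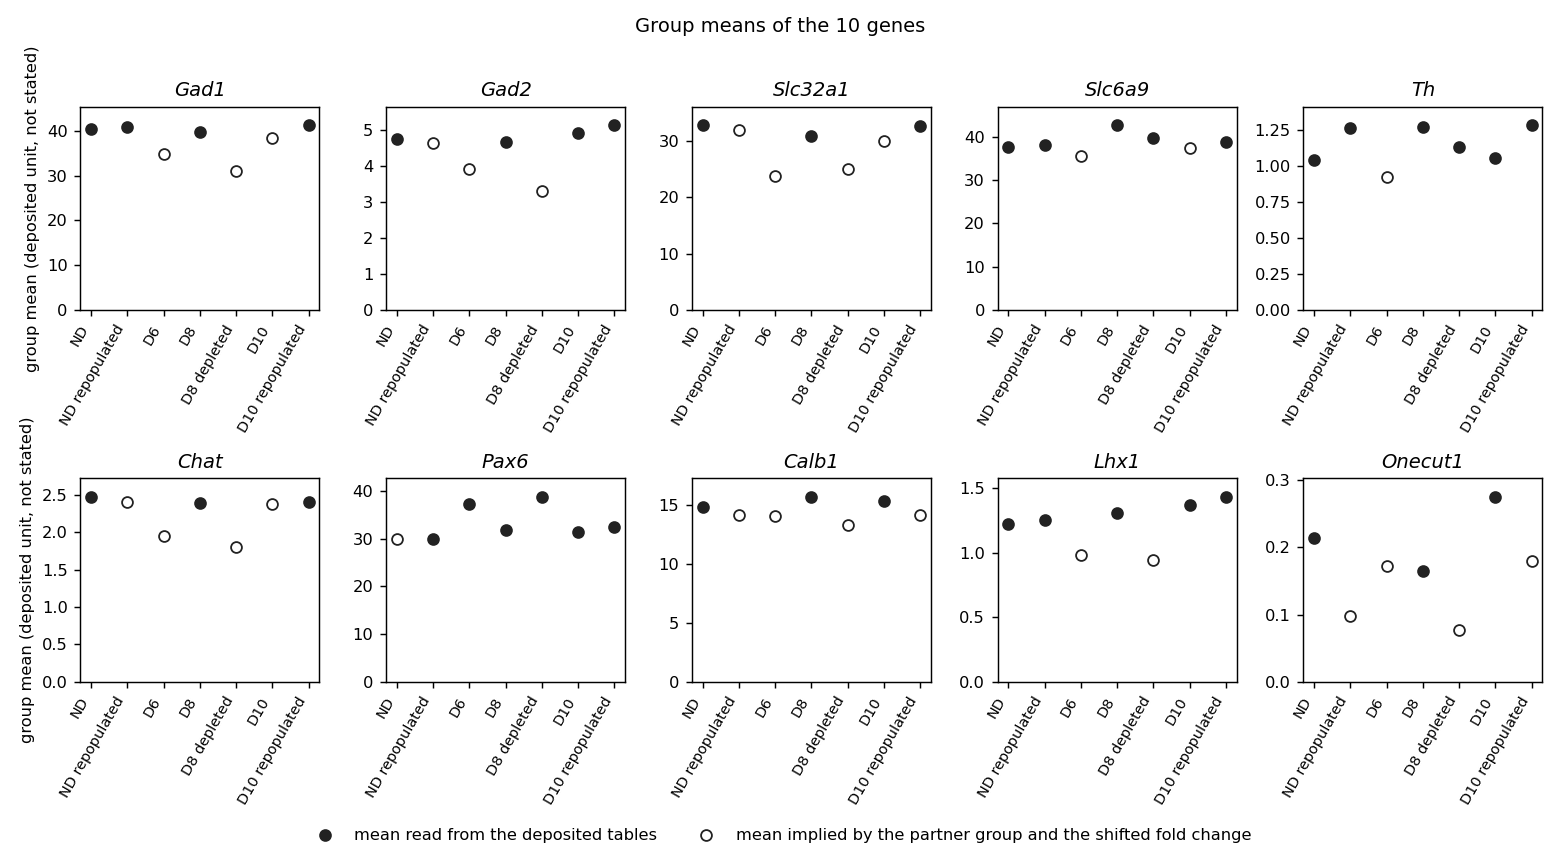
Group means of the 10 genes (vertical axis, in the deposited unit, which is not stated; each gene has its own scale from 0) in the 7 groups (horizontal axis). Filled points were read from the deposited tables and open points were implied by the partner group and the shifted fold change; Gad1, Gad2, Chat, Calb1, Lhx1 and Onecut1 are lowest in D8 depleted, and Pax6 is high in D6 and D8 depleted.

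Against D8, the diabetic group of the same duration, depletion came with lower Gad2 (log2 fold change −0.51, SE 0.15, adjusted p = 0.00986), lower Gad1 (−0.38, SE 0.12, adjusted p = 0.0272) and lower Slc32a1 (−0.32, SE 0.10, adjusted p = 0.0262) in the authors' deposited table. Gad2 fell by 30.0%, Gad1 fell by 23.2% and Slc32a1 fell by 20.1%. They make 3 of 10 genes called lower and 0 called higher, where 4.90% of the 16982 tested genes were called lower and 5.85% higher. The median of the 10 was −0.35, against 0.00 over all tested genes. As the tissue is whole retina, fewer cells of a type and less of an RNA per cell cannot be told apart.

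Against ND the same 3 were called lower in the D8 depleted retina, in the authors' deposited table: Gad2 by −0.57 (SE 0.13, adjusted p = 0.000275), Slc32a1 by −0.43 (SE 0.13, adjusted p = 0.00400) and Gad1 by −0.43 (SE 0.11, adjusted p = 0.00144). Chat, Calb1 and Onecut1 were also called lower there. Thus 6 of 10 were called lower and 0 higher, where 13.0% of the 18102 tested genes were called lower and 15.5% higher. Onecut1 has a low level, and 5 members, without it, were called lower when the lowest levels were left out. The median of the 10 was −0.42, against 0.02 over all tested genes. Both comparisons contain the D8 depleted samples, so the second is not a repeat of the first. D8 depleted differs from ND by diabetes as well as by depletion. No non-diabetic group was sampled while depleted, so the calls against ND cannot be assigned to depletion.

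Before depletion, at 6 weeks of diabetes, Slc32a1 was called lower against ND in the authors' deposited table (−0.42, SE 0.12, adjusted p = 0.00385), where it fell by 25.2%. Gad1 (−0.17, SE 0.11, adjusted p = 0.241) and Gad2 (−0.23, SE 0.12, adjusted p = 0.167) were not called in the authors' deposited table. Counted with Pax6, which was called higher, 1 of 10 genes was lower and 1 higher at D6, where 9.31% of the 17876 tested genes were called lower and 14.1% higher. The median of the 10 was −0.20, against 0.04 over all tested genes. Of the 10 values 9 were below 0, as were 8109 of the 17876 over all tested genes. The D6 and D8 depleted comparisons with ND share the ND samples, and D6 with D8 depleted was not among the deposited comparisons.

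**Figure D2:**
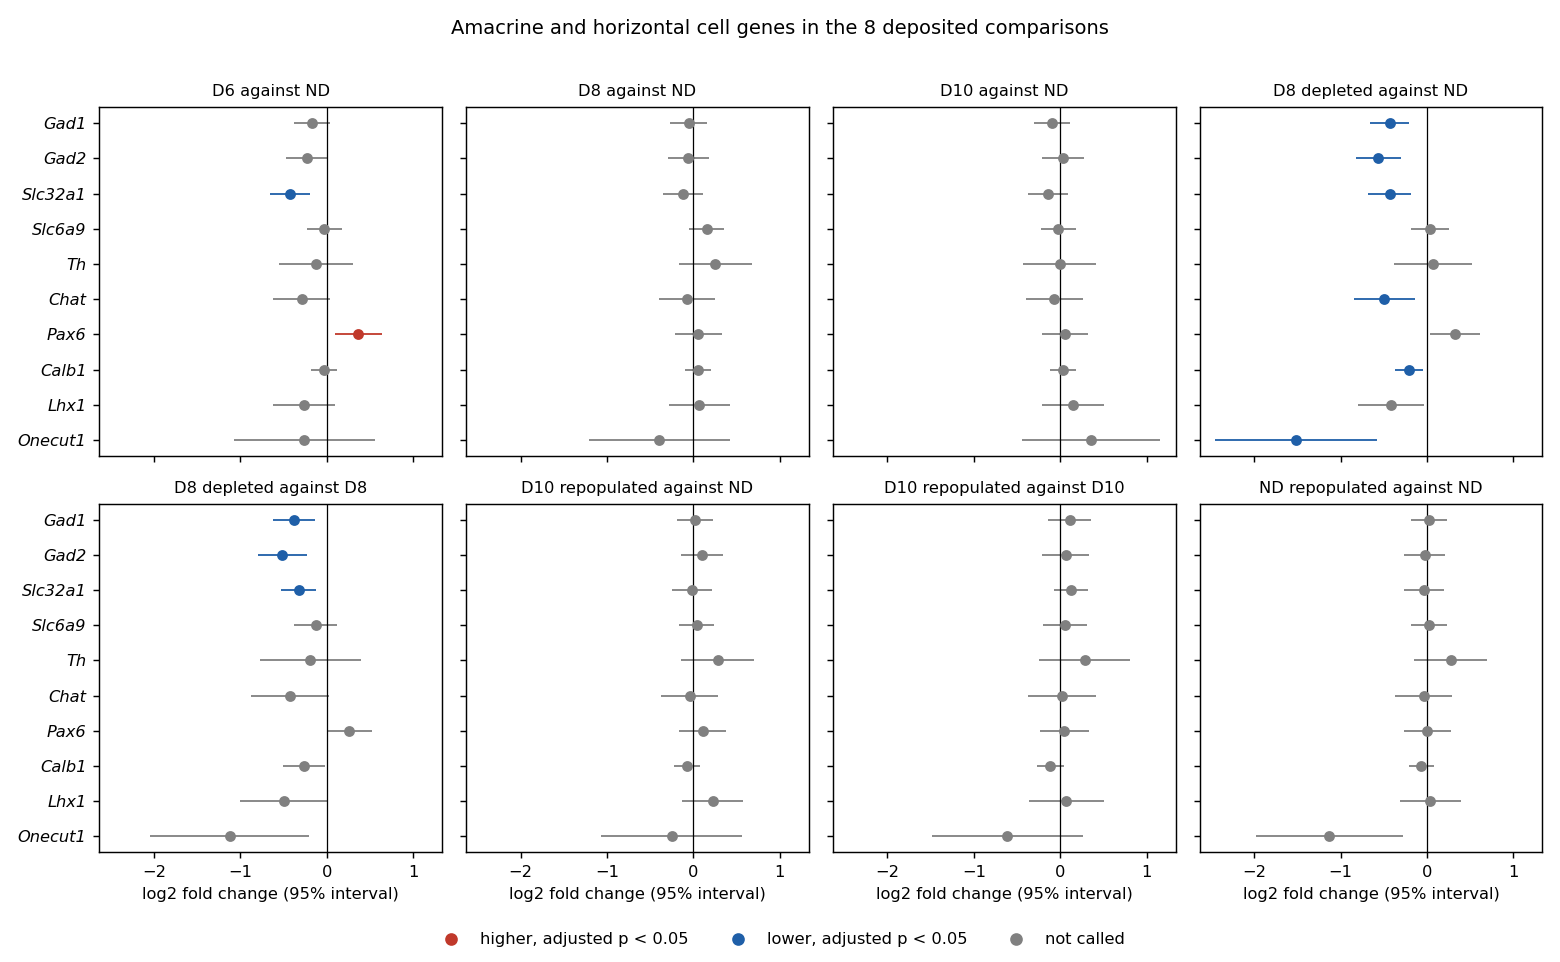
Log2 fold change of each of the 10 genes (rows) in the 8 deposited comparisons (panels), with bars for the 95% interval from the implied SE; blue and red points have an adjusted p under 0.05. The blue points are Slc32a1 at D6, 6 genes in D8 depleted against ND and 3 in D8 depleted against D8; the red point is Pax6 at D6.

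Slc6a9 encodes a glycine transporter of glia and of glycinergic amacrine cells. Its mean from the authors' deposited tables was 37.6 in ND, 38.2 in ND repopulated, 35.7 (implied) in D6, 42.7 in D8, 39.7 in D8 depleted, 37.4 (implied) in D10 and 38.8 in D10 repopulated. Its highest mean, in D8, was 1.20 times its lowest, and 1.13 times by the deposited fold changes without the shift. It was not called in any of the 8 tables. The authors' deposited table of D8 depleted against ND gave Slc6a9 0.03 (SE 0.11), with a 95% interval from −0.18 to 0.25, and that against D8 gave −0.13 (SE 0.13), from −0.38 to 0.12. Of its overlapping neighbours, B4galt2 was called lower in the authors' deposited table of D8 depleted against ND (−0.49, adjusted p = 0.010), and Ccdc24 was not (−0.50, adjusted p = 0.143). Their part in the value of Slc6a9 was not tested.

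Chat encodes choline acetyltransferase, which makes acetylcholine in starburst amacrine cells. Its mean from the authors' deposited tables was 2.47 in ND, 2.40 (implied) in ND repopulated, 1.95 (implied) in D6, 2.38 in D8, 1.81 (implied) in D8 depleted, 2.38 (implied) in D10 and 2.41 in D10 repopulated. D8 depleted was lowest and D6 next, as for Gad1 and Gad2. Chat fell against ND in the depleted retina by −0.50 (SE 0.18, adjusted p = 0.0259) in the authors' deposited table, and against D8 it was −0.43 (SE 0.23, adjusted p = 0.232) and not called. Slc18a3, the vesicular acetylcholine transporter that lies within Chat, was −0.35 in the authors' deposited table of D8 depleted against ND (adjusted p = 0.146).

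Th encodes tyrosine hydroxylase, the rate-limiting enzyme of dopamine synthesis. Its mean from the authors' deposited tables was 1.05 in ND, 1.27 in ND repopulated, 0.927 (implied) in D6, 1.28 in D8, 1.13 in D8 depleted, 1.06 in D10 and 1.28 in D10 repopulated. No table called it. Its SE was wide: the 95% interval of D8 depleted against D8 ran from −0.78 to 0.39 and that against ND from −0.39 to 0.52 in the authors' deposited tables; the interval against D8 includes the value found for Gad2.

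Pax6 encodes a transcription factor kept on in adult amacrine, horizontal and ganglion cells, and it was the only member with a call in the upward direction. Its mean from the authors' deposited tables was 29.9 (implied) in ND, 29.9 in ND repopulated, 37.3 in D6, 31.7 in D8, 38.7 in D8 depleted, 31.4 in D10 and 32.4 in D10 repopulated. The 2 groups in which Gad1, Gad2, Slc32a1 and Chat were lowest, D6 and D8 depleted, were thus those in which Pax6 was highest. At D6 it rose against ND by 0.37 (SE 0.14, adjusted p = 0.0379) in the authors' deposited table, a rise of 28.9%, and this call was lost when the fold changes were scaled as the deposited means (0.32). In D8 depleted it was 0.33 against ND (SE 0.15, adjusted p = 0.0804) and 0.26 against D8 (SE 0.13, adjusted p = 0.193) in the authors' deposited tables, and not called.

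Calb1, Lhx1 and Onecut1 are genes of horizontal cells, although Calb1 is also made by some amacrine and ganglion cells. Calb1 encodes the calcium-binding protein calbindin, and Lhx1 and Onecut1 encode transcription factors. The mean of Calb1 from the authors' deposited tables was 14.8 in ND, 14.1 (implied) in ND repopulated, 14.0 (implied) in D6, 15.6 in D8, 13.2 (implied) in D8 depleted, 15.3 in D10 and 14.1 (implied) in D10 repopulated. Calb1 varied little over the groups, 1.18 times from D8 depleted to D8 (1.19 times by the deposited fold changes without the shift), as did Slc6a9. It fell in D8 depleted against ND by −0.21 (SE 0.08, adjusted p = 0.0437) in the authors' deposited table, and this call was lost when the fold changes were centred on the median of all genes (−0.20) or scaled as the deposited means (−0.16). Against D8 the authors' deposited table gave Calb1 −0.26 (SE 0.13, adjusted p = 0.164).

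The mean of Lhx1 from the authors' deposited tables was 1.22 in ND, 1.25 in ND repopulated, 0.980 (implied) in D6, 1.30 in D8, 0.940 (implied) in D8 depleted, 1.37 in D10 and 1.43 in D10 repopulated. Lhx1 was again lowest in D8 depleted and next lowest in D6, but no table called it: the authors' deposited tables gave −0.42 against ND (SE 0.20, adjusted p = 0.0978) and −0.49 against D8 (SE 0.26, adjusted p = 0.218). The mean of Onecut1 was 0.214 in ND, 0.0973 (implied) in ND repopulated, 0.173 (implied) in D6, 0.165 in D8, 0.0769 (implied) in D8 depleted, 0.275 in D10 and 0.180 (implied) in D10 repopulated, from the authors' deposited tables. It spanned 3.58 times over the groups, more than any other member, and had the widest SE. Onecut1 fell in D8 depleted against ND by −1.52 (SE 0.48, adjusted p = 0.00833) in the authors' deposited table, and was −1.12 against D8 (SE 0.47, adjusted p = 0.103).

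In the comparisons without a depleted group at the time of sampling, other than D6, no member was called. In D8 against ND the members lay between −0.40 (Onecut1) and 0.25 (Th) in the authors' deposited table, with 0 called where 2.91% of all tested genes were. In D10 against ND they lay between −0.14 (Slc32a1) and 0.36 (Onecut1), with 0 called where 7.00% were, again in the authors' deposited table. None had an unadjusted p under 0.05 in either, against 11.3% and 16.1% of all tested genes. Gad1 (−0.06, SE 0.11), Gad2 (−0.06, SE 0.12) and Slc32a1 (−0.12, SE 0.12) at D8 were within 1 SE of 0 in the authors' deposited table.

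After 2 weeks of recovery the members passed no test. Microglia markers were not all back at the level of the controls in D10 repopulated: 4 of 10 were lower against D10 (median −0.94) and 5 of 10 against ND (median −0.67) in the authors' deposited tables. Against D10, 4 of 6 blood markers (median 3.80) and 3 of 8 pigment epithelium markers (median 0.74) were higher in the authors' deposited table, and the part of these cells in the members' values was not tested. The summed blood mean was 8.47 in D8 and 9.66 in D10, the groups with PBS in their labels. It was between 24.9 (D6) and 129 (D10 repopulated) in the other groups. D10 repopulated against D10 had 0 members called by the authors' deposited test where 0.446% of all tested genes were, and 0 with an unadjusted p under 0.05 against 7.27% of all. In the authors' deposited table of that comparison Gad1 was 0.11 (SE 0.13), Gad2 0.07 (SE 0.14) and Slc32a1 0.12 (SE 0.10), with 95% intervals from −0.14 to 0.36, from −0.21 to 0.34 and from −0.07 to 0.32. D10 repopulated against ND had 0 called where 11.7% were, and 0 members with an unadjusted p under 0.05 against 24.2% of all. There the authors' deposited table gave Gad1 0.02 (SE 0.11), Gad2 0.10 (SE 0.12), Slc32a1 −0.02 (SE 0.12) and Chat −0.04 (SE 0.17). ND repopulated against ND had 0 called where 0.156% were. Onecut1 alone had an unadjusted p under 0.05 in the authors' deposited table of that comparison (−1.13, SE 0.43, p = 0.00913), and with adjustment it did not pass (adjusted p = 0.99997).

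The 3 comparisons of a depleted or repopulated group with its own control that share no sample were set against each other by subtracting their log2 fold changes and dividing by the combined SE (a two-sided normal test, adjusted over all genes). No member passed in any of the 3. The fall of the GABA genes in D8 depleted against D8 minus the value in D10 repopulated against D10 was −0.45 for Slc32a1 (SE 0.14, p = 0.00196, adjusted p = 0.111), −0.58 for Gad2 (SE 0.20, p = 0.00402, adjusted p = 0.159) and −0.49 for Gad1 (SE 0.18, p = 0.00560, adjusted p = 0.182), from the authors' deposited tables by the normal test. These 3 were the members with an unadjusted p under 0.05, against 11.6% of all tested genes, of which 0.654% passed with adjustment. Against ND repopulated the differences were −0.40 for Gad1 (SE 0.16, adjusted p = 0.239) and −0.48 for Gad2 (SE 0.19, adjusted p = 0.219) from the authors' deposited tables, and these 2 had an unadjusted p under 0.05 against 12.2% of all, of which 1.27% passed. Between D10 repopulated against D10 and ND repopulated against ND, 0 members had an unadjusted p under 0.05 against 3.82% of all, of which 0.188% passed. It is therefore not shown that the value of any member differed between depletion and repopulation. In the differences from ND repopulated against ND, PBS and library numbers also cannot be told apart from depletion or repopulation.

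**Figure D3:**
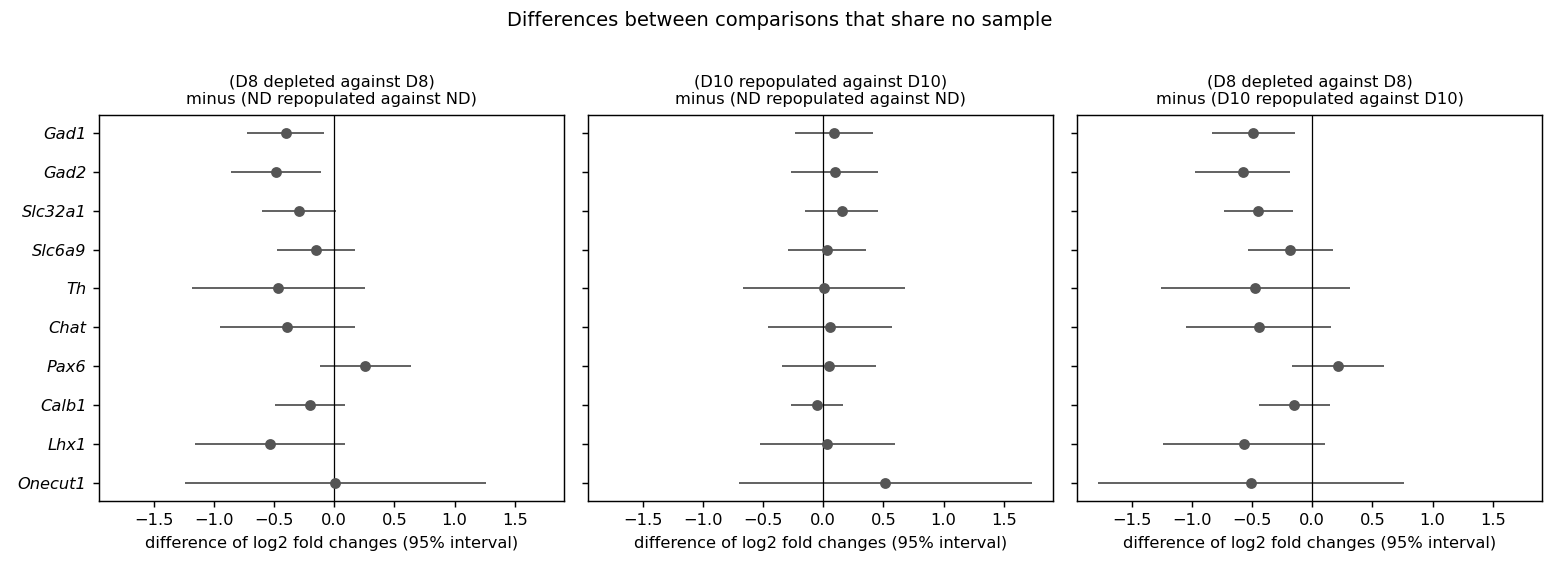
Difference of the log2 fold changes of each of the 10 genes (rows) between 2 comparisons that share no sample (panels), with bars for the 95% interval. The bars of Gad1 and Gad2 lie wholly below 0 in the left and right panels and that of Slc32a1 in the right panel, but no difference passed adjustment over all genes.

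Beyond the 10 members, 58 other genes of amacrine and horizontal cells were read from the same tables, in lists by transmitter or cell type. The lists were not limited to genes of these cells alone: Nefm, in the horizontal cell list, is also among the ganglion cell markers used below. In the authors' deposited table of D8 depleted against D8, 9 of the 58 were called lower and 0 higher, where 4.90% of all tested genes were lower and 5.85% higher, with a median of −0.11 (all genes 0.00). The 4 with the smallest p in the authors' deposited table were Slc6a11, a GABA transporter (−0.44, SE 0.11, adjusted p = 0.00271), Slc6a5, the glycine transporter of glycinergic neurons (−0.67, SE 0.17, adjusted p = 0.00323), Tfap2b, a transcription factor of amacrine cells (−0.46, SE 0.12, adjusted p = 0.00453) and Glrb, a glycine receptor subunit (−0.45, SE 0.13, adjusted p = 0.00885). Of the list for GABA, glycine and their transport 3 of 9 were called lower, of the transcription factors 3 of 17, of the neuropeptides and other transmitters 2 of 10, and of the starburst and dopaminergic lists 0 of 5 each. The horizontal cell list (1 of 9) and the list for calcium binding and AII amacrine cells (1 of 5) each had 1 lower gene, in both cases Prox1, a transcription factor named here after its values were seen (−0.40, SE 0.13, adjusted p = 0.0232 in the authors' deposited table).

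Against ND, 15 of the 58 were called lower and 4 higher in the D8 depleted retina in the authors' deposited table, where 13.0% of all tested genes were lower and 15.5% higher, with a median of −0.15 (all genes 0.02). The smallest p-values in the authors' deposited table belonged to Slc6a5 (−1.11, SE 0.15, adjusted p = 3.40e-11), the nuclear receptor Nr4a2 (−0.99, SE 0.17, adjusted p = 4.50e-07), Glrb (−0.47, SE 0.08, adjusted p = 1.29e-06) and Nos1, the neuronal nitric oxide synthase (−0.99, SE 0.19, adjusted p = 5.40e-06). The list for GABA, glycine and their transport had 5 of 9 lower and 0 higher. The horizontal cell list was mixed, with 2 of 9 lower and 2 higher and a median of 0.27. Of the 2 lower, 1 was Nefm (−0.48, SE 0.13, adjusted p = 0.00143 in the authors' deposited table), which is also a ganglion cell marker here.

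**Figure D4:**
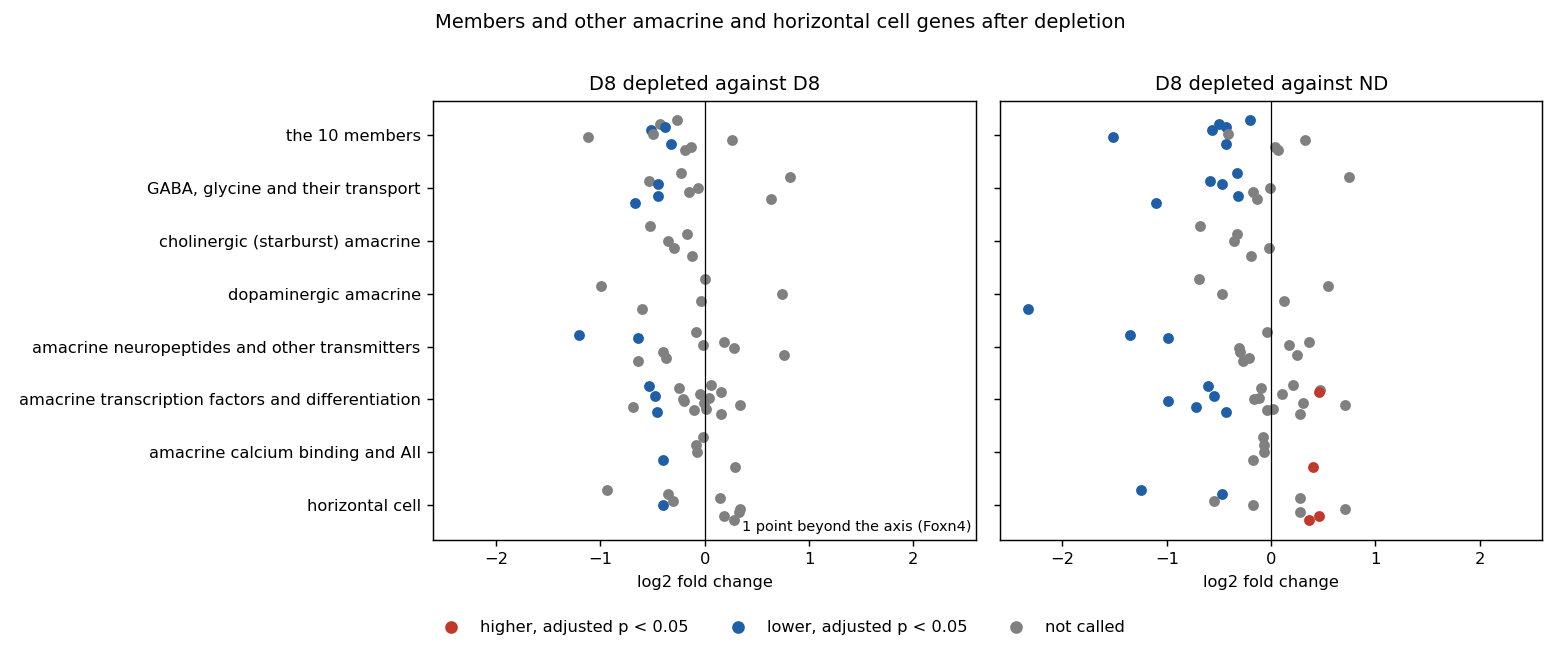
Log2 fold changes (horizontal axis) of the 10 members and of 58 other genes in 7 lists (rows, a gene may stand in more than 1) in D8 depleted against D8 (left) and against ND (right); blue and red points have an adjusted p under 0.05. All 9 called genes of the lists on the left are lower, and on the right 15 are lower and 4 higher; 1 low-level gene, Foxn4, lies beyond the axis on the left.

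Outside depletion, some of these genes were called too, also in comparisons in which no member was. In the authors' deposited table of D6 against ND, 10 of the 58 were lower and 4 higher, where 9.31% of all tested genes were lower and 14.1% higher. The smallest p-values in the authors' deposited table belonged to Nr4a2 (−0.86, SE 0.16, adjusted p = 4.16e-06), Slc6a5 (−0.62, SE 0.14, adjusted p = 0.000179), Bhlhe22 (−0.50, SE 0.12, adjusted p = 0.000298) and Isl1 (0.52, SE 0.12, adjusted p = 0.000355). Nr4a2 was also lower against ND at D8 (−0.79), D10 (−0.78) and D10 repopulated (−0.92) in the authors' deposited tables, all of which share the ND samples. Slc6a5 was also lower against ND at D8 (−0.44, SE 0.14, adjusted p = 0.0472) in the authors' deposited table. Gch1, the enzyme that starts the synthesis of the cofactor of tyrosine hydroxylase, was higher against ND at D6 (1.15, SE 0.43, adjusted p = 0.0351, named at D6 after its values were seen), D8 (1.53, SE 0.43, adjusted p = 0.0166), D10 (2.20, SE 0.43, adjusted p = 1.19e-05) and D10 repopulated (1.63, SE 0.43, adjusted p = 0.00285) in the authors' deposited tables, while Th itself was not called in them. Slc5a7, the choline transporter of cholinergic neurons, was higher at D10 (0.49, SE 0.16, adjusted p = 0.0258) and D10 repopulated (0.75, SE 0.15, adjusted p = 5.78e-05) in the authors' deposited tables, where Chat was not called. Of the 58, 1 was higher and 2 lower in the authors' deposited table of D8 against ND, where 2.91% of all tested genes were called. In D10 against ND 2 were higher and 1 lower, where 7.00% were called. In D10 repopulated against ND 6 were higher and 1 lower, where 11.7% were called. In D10 repopulated against D10 and in ND repopulated against ND, 0 of 58 and 0 of the 55 tested were called, where 0.446% and 0.156% of all tested genes were.

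Markers of other cells moved beside the members. The labelled tissue was checked on 8 rod markers, whose summed group mean was between 10285 (D8 depleted) and 12016 (ND). In the authors' deposited table of D8 depleted against D8 all 10 microglia markers were lower (median −4.07), 6 of 8 lens markers were lower (median −3.10), 4 of 5 tested blood markers and 3 of 8 pigment epithelium markers were higher, and 3 of 8 ganglion cell and 3 of 8 Müller glia markers were lower (medians −0.35 and −0.26). Against ND the authors' deposited table had 10 of 10 microglia and 8 of 8 lens markers lower, 4 of 8 ganglion cell markers lower and 1 higher, and 4 of 8 Müller glia markers lower. Markers of the other retinal neurons also moved: in the authors' deposited table against D8, 2 of 8 cone markers were lower, 2 of 8 bipolar markers lower and 1 higher, and 1 of 8 rod markers lower and 1 higher (medians −0.22, −0.18 and −0.14). Against ND, 3 of 8 cone markers were lower, 3 of 8 bipolar markers lower and 1 higher, 2 of 8 rod markers lower and 1 higher, and 2 of 8 pigment epithelium markers higher in the authors' deposited table (medians −0.10, −0.08, −0.08 and 0.90). The summed microglia mean was 26.0 in ND, 27.3 in ND repopulated, 28.1 in D6, 34.1 in D8, 7.18 in D8 depleted, 36.2 in D10 and 19.2 in D10 repopulated. The summed lens mean was 3307 in ND, 5823 in ND repopulated, 7107 in D6, 68.4 in D8, 7.23 in D8 depleted, 1948 in D10 and 1561 in D10 repopulated. At D6, where Slc32a1 was lower, 3 of 8 ganglion cell and 3 of 8 Müller glia markers were also lower and 2 of 8 lens markers were higher in the authors' deposited table. Other lists moved there too: 2 of 8 rod and 2 of 8 bipolar markers were lower, with 1 higher in each. Of the cone and of the microglia markers, 1 was lower and 1 higher, while 1 of 6 blood markers was lower and 1 of 6 endothelium markers higher. The part of these other cells in the values of the members was not tested.

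The genes whose 8 log2 fold changes lay nearest to those of a called member were found by the root mean square difference over the 8 comparisons, among 11370 genes with a level over 1 in every table. For Gad1 they were Fmn2 (0.024), Bend6 (0.031) and Gabra3 (0.033), and for Gad2 Slc2a13 (0.036), Ppt1 (0.043) and Prkar2b (0.046). For Slc32a1 they were Astn1 (0.033), Vamp1 (0.040) and Cplx1 (0.042), and for Chat Gfra1 (0.025), Oxr1 (0.025) and Slc24a3 (0.030). Pax6 was nearest to Mrpl4 (0.021), Cystm1 (0.021) and Cox5b (0.023), and Calb1 to Vps13d (0.029), Cpe (0.032) and Zap70 (0.035). Onecut1 had no close neighbour among the genes searched: its nearest were Fos (0.22), Pdpr (0.34) and Fam120c (0.36). Its own level was below 1 in every comparison, so genes of a like level were not searched and its distances cannot be set against those of the others. The 8 comparisons share groups, so these distances describe the tables only.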

How the data were processed

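Retina messenger RNA libraries of 35 samples were sequenced, stranded and poly(A)-selected, as paired reads of 100 bp, per the labels' protocols. The genome was GRCm39 and base calls were converted with bcl2fastq, per the submitters' processing notes; the aligner, counter, scaling and test: not given in the sources used here. Deposited by the authors were 8 tables of 25655 genes, each comparing a pair of groups: a log2 fold change, a p-value, an FDR p-value and a signal level whose unit is unknown and which, per the file headers, is the larger group mean. Benjamini-Hochberg adjustment of the deposited p-values gave the deposited FDR p-values to within 0.000489. Values per sample, and so depth per sample, were not analysed here; the precision given is the SE implied by each deposited p.

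The table of D10 against D10 repopulated lists the groups in reverse, so its signs were changed. SEs are the absolute log2 fold change over the normal quantile of p. Group means were read where a value recurs in tables sharing a group (relative tolerance 1e-05), where the other mean is known and lower, or by the sign of the fold change; the others were implied by the fold change plus the table's median gap between mean ratio and fitted fold change, over genes with a level over 5. Bases before start sites came from RefSeq (GRCm38.p6), a build other than that of the tables, and were matched by symbol. Python 3.11.15, numpy 2.4.6, pandas 2.3.3 and scipy 1.17.1 were used. The difference test, the implied SEs, the adjustment and the centring were tested on simulated data, and the other steps were not.

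The members and lists were chosen with earlier results of these data known. All 10 members are named in all tables, and of the 58 other genes at most the 4 called genes with the smallest p in each comparison. Foxn4, Nefm, Prox1, Slc18a3 and, at D6 and in D8 depleted, Gch1 are named outside this rule. Near genes are the 3 with the smallest root mean square difference, predicted names left out. Alternatives were thresholds of 0.01 and 0.10, leaving out the lowest 40 percent of levels or 5142 predicted names, centring on all genes, differences through ND and, added after the data were seen, scaling as the deposited means. Those alternatives were also run on the differences between comparisons, other than the scaling and the differences through ND.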

Additional observations from a re-analysis of the deposited data

How the results depend on the processing

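No value of a member changed direction under the alternatives run. The count of members higher in D6 against ND fell from 1 to 0 at a threshold of 0.01 and to 0 when scaled as the deposited means, which moved Pax6 from 0.37 to 0.32; the second alternative was chosen after the data were seen. The count of members higher in D8 depleted against ND rose from 0 to 1 (Pax6) at a threshold of 0.10 and to 1 when scaled as the deposited means. The count lower in D8 depleted against D8 fell from 3 to 1 (Gad2) at a threshold of 0.01, where Gad1 and Slc32a1 were lost. In D8 depleted against ND, Chat and Calb1 were lost at 0.01 and Lhx1 was gained at 0.10. Leaving out predicted names changed no call in 80 gene values. Leaving out the lowest 40 percent of levels removed Th, Lhx1 and Onecut1 from every table and Chat from 3, and changed no call in the 53 values left. The log2 fold changes taken through ND kept their direction and call in 20 of 20 values. The cause of the lost calls under the other scalings was not tested. No replicate could be left out and no batch fitted, since values per sample were not used. No paired analysis was possible because the labels give no replicate numbers and the tables hold no values per sample.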
